A study of Mus musculus with 6 samples.

Results

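The guanylate-binding protein (Gbp) genes of the mouse were followed in cells grown from bone marrow with GM-CSF. A gene was a member if a probe set carried a single symbol made of Gbp and a number, with or without a letter, and this gave 8 genes, each with 1 probe set, out of 19938 genes measured. The members are Gbp5, Gbp7, Gbp3 and Gbp2b, which lie in this order in the chromosome 3 cluster, and Gbp8, Gbp9, Gbp4 and Gbp11 of the chromosome 5 cluster. RefSeq lists 11 numbered Gbp genes in these clusters (5 on chromosome 3 and 6 on chromosome 5). The other three, Gbp2, Gbp6 and Gbp10, are read only by probe sets that carry several symbols, and Gbp11 is annotated as a transcribed pseudogene. Older symbols are in use for some members: Gbp2b is the gene long called Gbp1, and Gbp4 has also served as a synonym of Gbp3, so that genes are named here by their Entrez identifiers.

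The series holds 6 Affymetrix Mouse Gene 1.0 arrays, 3 of a dendritic population and 3 of a macrophage population. Both came from tibia and femur marrow of C57B/6 mice kept for 6 days in 20 ng/ml recombinant GM-CSF, and both are labelled unstimulated. The sources used here give neither the age of the mice nor the way the populations were parted. They also leave unstated whether replicates were separate mice or cultures, so that p-values reflect the spread among these arrays alone, possibly a technical one. Values are log2 RMA values, and differences on that scale are dendritic minus macrophage means.

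Guanylate-binding proteins are large GTPases of the dynamin superfamily that interferons, above all interferon-gamma, induce in macrophages and many other cells. In infected mouse cells they gather on the vacuoles of parasites and bacteria or on bacteria in the cytosol, help to break these open, and promote the inflammasomes that sense what is released. Transcription of the genes is classically driven through ISRE elements of their promoters, which interferon regulatory factors such as IRF1 bind, and through GAS elements, which answer to interferon-gamma.

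The promoters of the 4 chromosome 3 members are shown because these neighbours differed between the populations in opposite directions. Each window is from RefSeq on GRCm38.p6, + strand, and runs from 250 bases before to 50 bases after an annotated start. Gbp5 is at chr3:142496684-142496983, Gbp7 at chr3:142530086-142530385, Gbp3 (the first of its annotated starts) at chr3:142559794-142560093 and Gbp2b at chr3:142594597-142594896. Capitals mark matches, on either strand, to the core of an ISRE (AAANNGAAA) or to a GAS element (TTCNNNGAA), and no match of one overlaps a match of the other.
Gbp5: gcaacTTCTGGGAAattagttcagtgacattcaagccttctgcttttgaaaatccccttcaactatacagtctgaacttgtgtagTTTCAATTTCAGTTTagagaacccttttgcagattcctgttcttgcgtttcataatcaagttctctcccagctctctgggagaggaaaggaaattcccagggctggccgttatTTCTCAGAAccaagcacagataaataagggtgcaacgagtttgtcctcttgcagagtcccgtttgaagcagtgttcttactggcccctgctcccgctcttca
Gbp7: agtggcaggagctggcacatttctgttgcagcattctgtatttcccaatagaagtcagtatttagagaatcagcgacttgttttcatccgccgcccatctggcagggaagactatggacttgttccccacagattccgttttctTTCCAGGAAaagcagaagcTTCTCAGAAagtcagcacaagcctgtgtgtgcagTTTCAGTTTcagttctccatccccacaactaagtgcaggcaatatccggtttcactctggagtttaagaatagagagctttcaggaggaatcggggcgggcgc
Gbp3: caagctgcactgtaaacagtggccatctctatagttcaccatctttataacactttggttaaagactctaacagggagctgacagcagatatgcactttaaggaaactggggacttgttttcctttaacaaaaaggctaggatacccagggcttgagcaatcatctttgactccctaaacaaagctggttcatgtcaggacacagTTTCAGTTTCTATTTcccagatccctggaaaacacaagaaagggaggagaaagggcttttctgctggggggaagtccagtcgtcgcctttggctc
Gbp2b: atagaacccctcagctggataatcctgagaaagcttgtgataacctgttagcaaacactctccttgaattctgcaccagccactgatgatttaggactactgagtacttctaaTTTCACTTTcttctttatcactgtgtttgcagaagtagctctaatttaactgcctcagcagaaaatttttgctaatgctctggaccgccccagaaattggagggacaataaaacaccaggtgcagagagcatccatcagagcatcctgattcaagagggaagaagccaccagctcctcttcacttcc
Gbp5 and Gbp2b were higher in the dendritic population, and Gbp7 and Gbp3 were lower. An ISRE core match stood in the promoter of each of the 4, on both sides of that divide. Counted from 0 at the start, it began at -53 in Gbp7 and at -137 in Gbp2b. A pair of overlapping matches began at -165 and -159 in Gbp5, and another at -45 and -39 in Gbp3. GAS matches numbered 2 in Gbp5 (from -245 and -52) and 2 in Gbp7 (from -106 and -87), and no GAS match lay in the Gbp3 or Gbp2b windows. The window of the second Gbp3 start held no match, and that of Gbp2 held 1 ISRE core match, from -59. Of the 6 windows, all from chromosome 3 (2 of them of Gbp3, 1 of the non-member Gbp2), 5 held an ISRE core match, beside 10.6% of the 32851 promoter windows of the mouse table, while GAS matches were held by 8.30% of them. Promoters of the chromosome 5 members were not analysed here. A match is a run of letters, and binding was not measured. The map of motif matches sets the windows side by side.

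**Figure D1:**
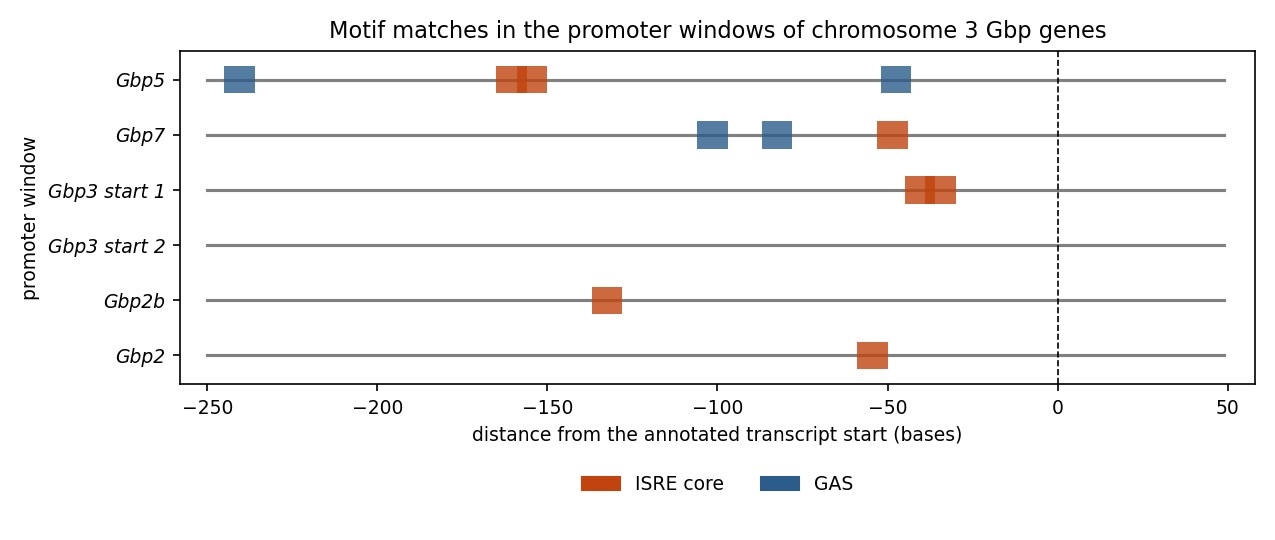
Motif matches in the RefSeq promoter windows of the chromosome 3 Gbp genes, by distance in bases from the annotated transcript start (dashed line). Coloured blocks are ISRE core and GAS matches, and ISRE core matches stand in 5 of the 6 windows.

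Across the 8 members, 4 were higher in the dendritic population (Gbp5, Gbp8, Gbp4 and Gbp2b), 2 were lower (Gbp7 and Gbp3) and 2 did not pass the test (Gbp9 and Gbp11). The test was limma across all 19938 genes, 2-sided, with Benjamini-Hochberg adjustment and a call at an adjusted p under 0.05. Of all genes 21.6% were called, 9.98% higher and 11.6% lower. The members' differences had a median of 1.18, where all genes had 0.03, and the median size without sign was 1.29 for the members, where all genes had 0.18. The populations did not overlap for 7 of the 8 members, a property shared by 34.0% of all genes. One of the 7, Gbp9, counts by less than 0.01, its nearest arrays being equal to 2 decimals. Because these are bulk samples, fewer cells of a kind and less RNA per cell cannot be told apart.

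**Figure D2:**
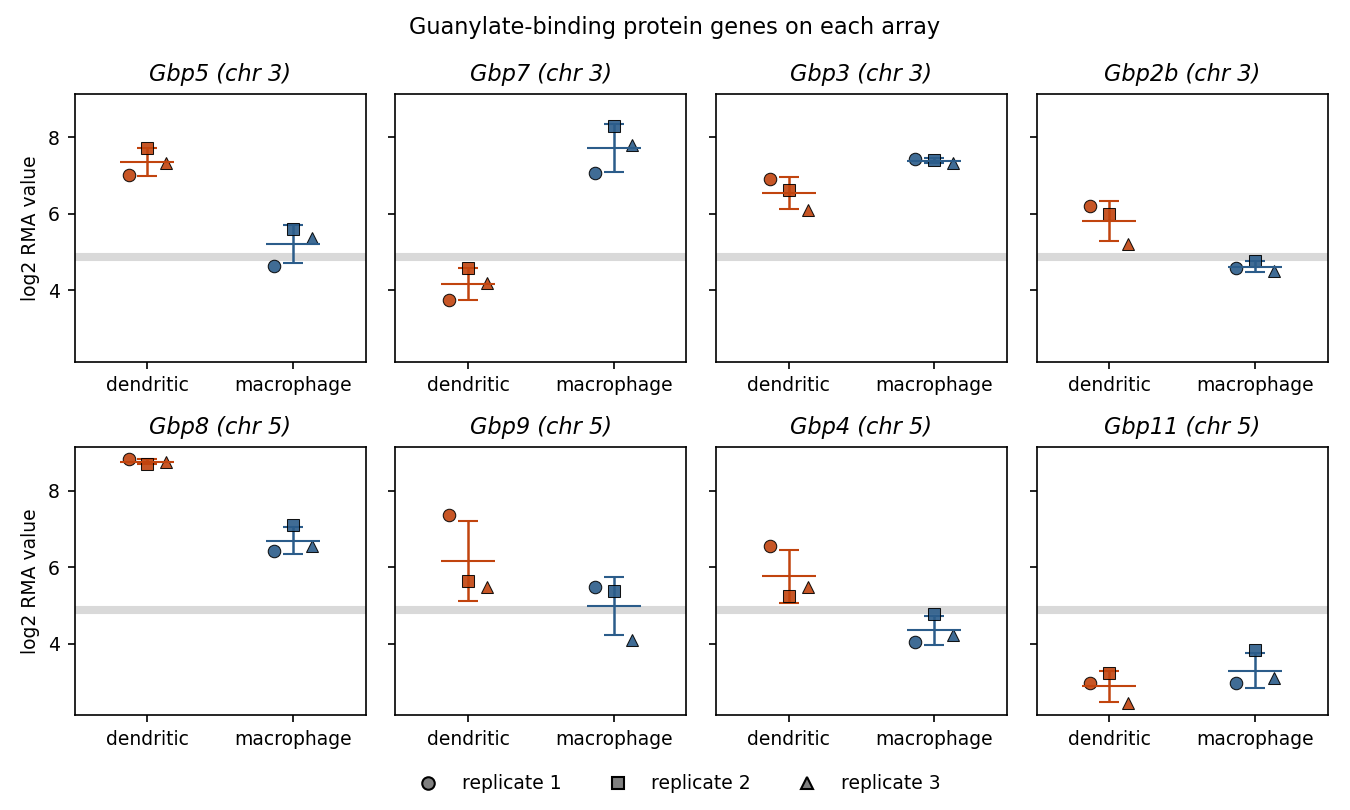
Log2 RMA values of the 8 Gbp genes on each array, dendritic left and macrophage right, with the mean and SD (n = 3) as bars and the replicate number as symbol. The grey band spans the array medians of all probe sets, 4.79 to 4.96. Gbp7 and Gbp3 lie lower on all dendritic than on all macrophage arrays, and Gbp5, Gbp2b, Gbp8 and Gbp4 lie higher.

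Gbp7 (probe set 10496569) had the largest difference of the family. Its product has been tied, in mice, to killing of bacteria in macrophages through the phagocyte NADPH oxidase. The log2 values were 3.75, 4.58 and 4.19 on the dendritic arrays, against 7.06, 8.30 and 7.81 on the macrophage arrays. All dendritic values lay under the array medians of 4.79 to 4.96 and all macrophage values well over them, with a gap of 2.48 between the nearest arrays. The means were 4.17 ± 0.42 in the dendritic and 7.72 ± 0.62 in the macrophage population (SD, n = 3 each). This was a difference of -3.55 ± 0.31 (SE), 11.7-fold lower on the RMA scale (limma adjusted p = 5.04e-05), and the 106th lowest of 19938 genes. The table has no detection calls, so whether dendritic cells expressed Gbp7 at all is not known, and RMA values compress the differences of dim probe sets.

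Gbp5 (probe set 10496539), the neighbour of Gbp7 in the cluster, moved the other way. It encodes a prenylated protein that has been linked to assembly of the NLRP3 inflammasome in mouse macrophages. Dendritic arrays held 7.01, 7.73 and 7.32, against 4.65, 5.61 and 5.37 on macrophage arrays, so that the nearest arrays were 1.41 apart. Its mean was 7.35 ± 0.36 in the dendritic and 5.21 ± 0.50 in the macrophage population (SD, n = 3 each), a difference of 2.14 ± 0.26 (SE) or 4.42-fold higher (limma adjusted p = 0.00038). That was the 216th highest difference of all genes.

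Replicates of Gbp5 and Gbp7 varied alike although the populations differed in opposite senses. For both genes replicate 1 was the lowest and replicate 2 the highest array in each population. The within-array difference of Gbp5 minus Gbp7 was therefore steadier than either gene, at 3.26, 3.15 and 3.12 on dendritic arrays and -2.41, -2.69 and -2.44 on macrophage arrays. The probe sets differ in brightness for the same amount of RNA, so these values carry meaning only between populations. Between them the shift was 5.69, which is given without a test because each gene alone already separates the populations.

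Gbp3 (probe set 10496580), the third gene of the cluster, is one of those whose joint deletion with the rest of the chromosome 3 cluster leaves mice open to Toxoplasma. Its values were 6.92, 6.63 and 6.10 on the dendritic arrays, against 7.44, 7.41 and 7.33 on the macrophage arrays. The macrophage arrays were nearly level and the dendritic ones all lower, by at least 0.40. The means were 6.55 ± 0.42 in the dendritic and 7.39 ± 0.06 in the macrophage population (SD, n = 3 each). The difference was -0.84 ± 0.20 (SE), or 1.79-fold lower (limma adjusted p = 0.0139).

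Gbp2b (probe set 10496555) encodes the protein known in mice as Gbp1, a prenylated member that coats parasite vacuoles. It stood at 6.21, 6.01 and 5.21 on the dendritic arrays, against 4.59, 4.77 and 4.51 on the macrophage arrays, which lay under the array medians. Replicate 3 was the lowest dendritic array and still 0.44 over the highest macrophage array. With means of 5.81 ± 0.53 in the dendritic and 4.62 ± 0.13 in the macrophage population (SD, n = 3 each), the difference was 1.18 ± 0.24 (SE), or 2.27-fold higher (limma adjusted p = 0.00659). The shift of Gbp2b minus Gbp3 within arrays was 2.02, again without a test.

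Gbp2, the last gene of the chromosome 3 cluster and one that restricts Toxoplasma in mouse cells, shares a probe set with Gbp2b (10496592). That probe set read 8.45, 8.92 and 8.47 on the dendritic arrays, against 8.26, 8.54 and 8.43 on the macrophage arrays, and the populations overlapped. Its difference, from a fit over all 35556 probe sets, was 0.21 ± 0.17 (SE), with a 95% interval from -0.19 to 0.60 (limma adjusted p = 0.58). A rise as large as that of Gbp2b alone (1.18) lies outside this interval. The share of either gene in the signal of the probe set was not tested.

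On chromosome 5, Gbp8 (probe set 10531972) was the most even of the members called. Values of 8.83, 8.71 and 8.74 on the dendritic arrays stood against 6.43, 7.10 and 6.55 on the macrophage arrays. All 3 dendritic arrays lay within a narrow band that began 1.61 over the highest macrophage array. The means were 8.76 ± 0.06 in the dendritic and 6.69 ± 0.36 in the macrophage population (SD, n = 3 each), and the difference of 2.07 ± 0.18 (SE), 4.19-fold higher, was the 232nd highest of all genes (limma adjusted p = 4.76e-05).

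Gbp4 (probe set 10531987) was higher too, but less evenly. Its dendritic values were 6.55, 5.24 and 5.48, against macrophage values of 4.05, 4.78 and 4.23. Replicate 1 was far the highest dendritic array, and the other two lay 0.46 or more over the macrophage arrays. The difference of the means, 5.76 ± 0.70 in the dendritic and 4.35 ± 0.38 in the macrophage population (SD, n = 3 each), was 1.41 ± 0.33 (SE), or 2.65-fold (limma adjusted p = 0.0137). Without macrophage replicate 3 the call was lost (1.34, limma adjusted p = 0.0514). When replicate 1 was dropped from both populations, which was tried only after seeing the data, the difference was 0.86 and still called (limma adjusted p = 0.0128).

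Gbp9 (probe set 10531980) had values of 7.36, 5.63 and 5.48 on the dendritic arrays, against 5.48, 5.38 and 4.10 on the macrophage arrays. Dendritic replicate 1 stood high, macrophage replicate 3 stood low, and the nearest arrays of the populations met at 5.48. Means of 6.16 ± 1.05 in the dendritic and 4.99 ± 0.77 in the macrophage population (SD, n = 3 each) gave a difference of 1.17 ± 0.52 (SE) that was not called (limma adjusted p = 0.166). A block for the replicate number gave a call (limma adjusted p = 0.0175). Without dendritic replicate 1 the difference was 0.57 and without macrophage replicate 3 it was 0.73, and neither was called (limma adjusted p = 0.339 and 0.446).

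The array that raised Gbp9 and Gbp4 also held the most signal of neutrophil genes in its population. The 8 neutrophil markers averaged a log2 value of 7.68 on dendritic replicate 1, against 6.97 and 6.64 on dendritic replicates 2 and 3. On the macrophage arrays the same average was 7.90 for replicate 1, 6.76 for replicate 2 and 6.83 for replicate 3. Among the macrophage arrays, replicate 1 held the lowest value of Gbp4 (4.05) and the highest of Gbp9 (5.48). The interferon-induced GTPase gene Mx1 had a value of 9.45 on dendritic replicate 1, against 7.78 and 6.96 on dendritic replicates 2 and 3. The 33 interferon-gamma targets were nearly level over these arrays, averaging 7.80, 7.91 and 7.91 on dendritic replicates 1, 2 and 3. So were the 25 type I interferon-stimulated genes, at 5.69, 5.66 and 5.65. The 6 other interferon-inducible GTPases, Mx1 among them, were not level, at 5.20, 4.79 and 4.29 in the same order. In that list Mx2 (6.36, 4.46 and 3.51) and Irgm1 (5.81, 5.45 and 5.05) fell too, while Iigp1, Gm12250 and Gm4951 did not. Within the type I list, the antiviral enzyme Rsad2 had values of 5.94, 5.99 and 6.34 on the same arrays, and Trim30a had 8.06, 7.08 and 6.93. The part of these in the values of Gbp9 and Gbp4 was not tested.

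Gbp11 (probe set 10532019), the transcribed pseudogene, was dim throughout, at 2.96, 3.24 and 2.45 on the dendritic arrays and 2.96, 3.83 and 3.10 on the macrophage arrays. All 6 values lay under the array medians and the populations overlapped. Its difference of -0.41 ± 0.26 (SE) did not pass (limma adjusted p = 0.374), with a 95% interval from -1.01 to 0.19. It was -0.15 without macrophage replicate 2 and -0.20 without dendritic replicate 3, neither called.

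A probe set shared by all 6 genes of the chromosome 5 cluster (10531994), including Gbp6 and Gbp10, held 6.38, 6.03 and 5.71 on the dendritic arrays, against 5.08, 5.62 and 5.50 on the macrophage arrays. Each dendritic array was higher than each macrophage array, but the difference of 0.64 ± 0.22 (SE) did not pass among all 35556 probe sets (limma adjusted p = 0.119; 95% interval 0.13 to 1.15). This probe set shows that the annotation does not part the chromosome 5 genes everywhere. They are close relatives, and the single-symbol probe sets of Gbp4, Gbp8 and Gbp9 may take signal from one another. Which of them changed is therefore uncertain. On chromosome 3, Gbp2 and Gbp2b share a probe set too, and signal taken from related genes was not tested in either cluster.

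By chromosome, 2 of 4 members were higher and 2 lower in the chromosome 3 cluster, while on chromosome 5 2 of 4 were higher and 0 lower. Along chromosome 3 the signs ran higher, lower, lower, higher from Gbp5 to Gbp2b. Of the nearest measured protein-coding genes outside the clusters, taken 3 to a side, none of the 6 around the chromosome 3 cluster was called, with differences from -0.35 to 0.49. Around the chromosome 5 cluster 1 of 6 was higher, Lrrc8c (0.84, limma adjusted p = 0.00746), and 1 was lower, Lrrc8d (-0.69, limma adjusted p = 0.00941), both named after their values were seen. They encode subunits of volume-regulated anion channels. Among all genes the share called was 21.6%, and so few flanking genes cannot be set apart from it.

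**Figure D3:**
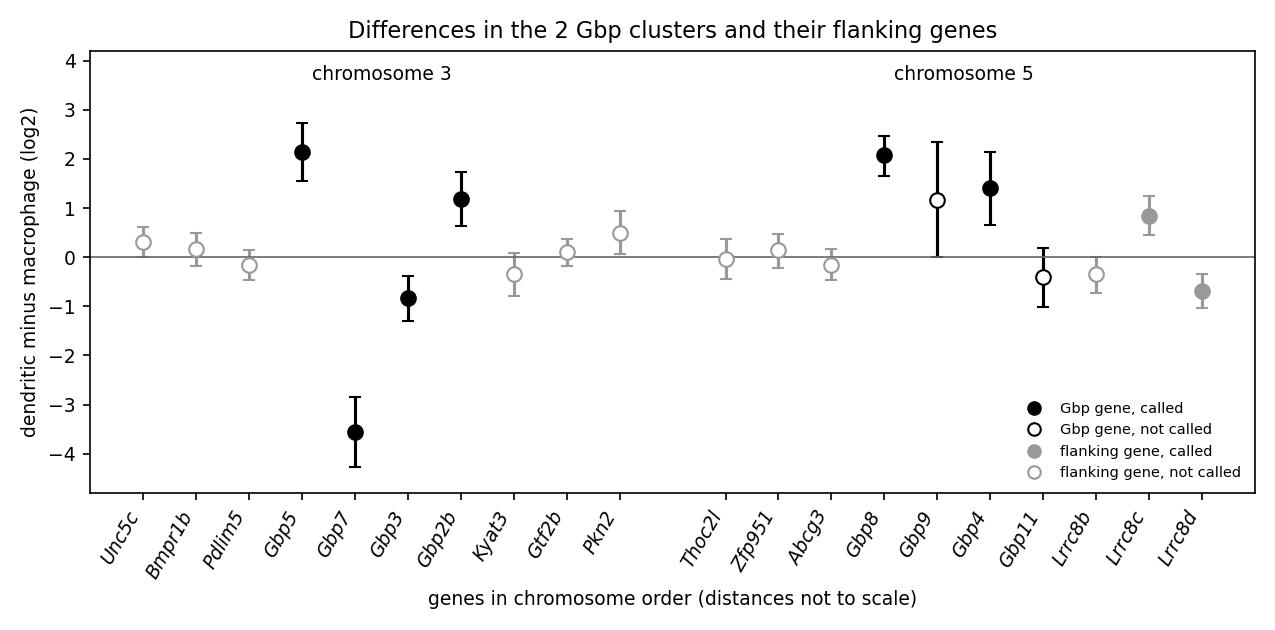
Difference between dendritic and macrophage means (log2, dots) with 95% intervals (bars) for the Gbp genes and 3 flanking genes on each side, in chromosome order. Gbp5 at 2.14 and Gbp7 at -3.55 are neighbours, while the flanking genes lie between -0.69 and 0.84.

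Over the 6 arrays the genes outside the family most like Gbp8, the member with the highest mean, were the centriole kinase Plk4 (Pearson r = 0.9979), the calcineurin subunit Ppp3cc (0.9963), the ESCRT component Vps37c (0.9960), the retinoblastoma relative Rbl1 (0.9950) and Glipr2 (0.9949). In all, 29 genes reached an r of at least 0.99. Such values mainly repeat the split between the populations and are given as a description.

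The populations fitted their labels by most markers. Among all genes 9.98% were called higher and 11.6% lower, so a count of 1 in a short list cannot be set apart from that share. Of 8 dendritic markers 5 were higher, namely Fscn1 (6.45), Ccr7 (5.30), Flt3 (4.70), Dpp4 (3.21) and Zbtb46 (1.82). Of the rest 1 was lower, the integrin Itgax (-2.52), while H2-Ab1 (-0.39) and Cd74 (-0.23) had lower dendritic means and were not called. All 6 measured macrophage markers were lower, such as Csf1r (-5.76). Of 10 markers of NK or T cells, the main makers of interferon-gamma, 2 were higher, Klrk1 (3.50) and Il2rb (0.79, limma adjusted p = 0.0464), and 5 lay under the lowest array median on every array, among them Cd3d, Cd3g, Ncr1 and Gzma. The Il2rb call held without dendritic replicate 1 and was lost without each of the other arrays (0.058 to 0.151) and when all probe sets were tested (0.112). The average of that list was 4.19 to 4.50 on the dendritic and 4.04 to 4.07 on the macrophage arrays. Of 4 B cell markers 1 was higher (Cd79a, 0.81), with list averages of 4.34 to 4.59 on the dendritic and 3.91 to 4.30 on the macrophage arrays. The Cd79a call was lost without dendritic replicate 2 (limma adjusted p = 0.0545) or macrophage replicate 2 (0.0506). Of 6 plasmacytoid dendritic cell markers 1 was higher (Spib, 4.28), with averages of 6.04 to 6.34 and 5.33 to 5.49 in the same order of populations, and Siglech stayed under the lowest array median on every array. Of 8 neutrophil markers 1 was lower (Mpo, -0.74), and none of 5 basophil or mast cell markers was called. The Mpo call was lost without dendritic replicate 1 or 2 or macrophage replicate 1 or 3 (limma adjusted p = 0.0519 to 0.0795), without replicate 1 of both populations (-0.53, 0.0816), with array weights (-0.46, 0.0858) and when all probe sets were tested (0.0558).

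Across the lists of genes that induce or assist the Gbp proteins, some genes were called higher and some lower. Some lists held mostly higher or mostly lower calls, as given below. Interferon-gamma itself (Ifng) was dim, at 3.64, 4.69 and 4.49 on the dendritic and 4.32, 4.31 and 4.34 on the macrophage arrays, a difference of -0.05 ± 0.25 (limma adjusted p = 0.948) whose sign turned under 4 alternatives. Its ligand-binding receptor chain Ifngr1 was lower in the dendritic population, at 7.86, 7.04 and 7.20 against 10.09, 9.14 and 9.11 on the macrophage arrays (-2.08 ± 0.30, limma adjusted p = 0.000904). The second chain, Ifngr2, differed by -0.39 ± 0.14 and was not called (limma adjusted p = 0.0888), except with a mean-variance trend and robust estimation (0.044). The transcription factor Irf1 was higher, at 9.38, 9.46 and 9.82 on the dendritic arrays against 7.03, 6.86 and 6.57 on the macrophage arrays (2.73 ± 0.17, limma adjusted p = 6.38e-06). Thus the receptor chain and Irf1 differed in opposite directions, and the part of either in the Gbp values was not tested.

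Of 17 measured genes of interferon-gamma signalling and its feedback, 9 were higher and 1 was lower, with a median of 0.53. Among all genes 9.98% were called higher and 11.6% lower, with a median of 0.03. Besides Irf1, the largest were the interferon regulatory factor Irf8 (2.23) and the receptor kinase Jak2 (2.12), and Ifngr1 was the lower one. The feedback inhibitor Socs1 was among those higher (0.73, limma adjusted p = 0.0395), but its call was lost without dendritic replicate 2 or 3 or macrophage replicate 1 or 3 (0.111 to 0.141). Of 12 measured interferons and receptors for all interferon types, 1 was higher, the kinase Tyk2 (0.73), and 3 were lower, Ifngr1, Il10rb (-1.29) and Ifnar2 (-0.45, limma adjusted p = 0.0344), with a list median of -0.16. Blocking by replicate number made that 2 higher. The Ifnar2 call held without macrophage replicate 2 and was lost without each of the other arrays (0.0652 to 0.113).

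Of 33 other interferon-gamma targets 15 were higher and 4 lower, with a median of 0.33. Among all genes 9.98% were called higher and 11.6% lower, and the 4 lower targets are near that share. Led by the chemokine Ccl5 (4.76), Irf1 and the costimulatory receptor Cd40 (1.95), the higher ones share their sign with Gbp5, Gbp8, Gbp4 and Gbp2b. The lower ones included the IgG receptor Fcgr1 (-4.24), the surface receptor Slamf8 (-1.55) and the biopterin enzyme Gch1 (-1.33), which share their sign with Gbp7 and Gbp3. Fcgr1 is also among the macrophage markers, and Irf1 and Socs1 also stand in the signalling list. The call of Slamf8 was lost without dendritic replicate 2 (limma adjusted p = 0.0634) and when all probe sets were tested (0.0555). Of 25 type I interferon-stimulated genes 5 were higher and 5 lower (median -0.32), with Bst2 (1.89), Usp18 (1.69) and Rsad2 (1.43) on one side and Ifi203 (-2.02), the RNA sensor Ddx58 (-1.71) and Oas1a (-1.15) on the other. The count of those lower was 3 without dendritic replicate 3.

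Other interferon-inducible GTPases were measured for 6 of 15 genes listed. Mx1 was higher (2.85) and Gm12250, also called Irgb10, was lower (-0.91), with a list median of -0.19. With 6 genes these counts cannot be set apart from the 9.98% higher and 11.6% lower among all genes. Blocking by replicate number made that 3 lower, and 2 were lower without macrophage replicate 1. Among 19 inflammasome and defence partners of the Gbp proteins 14 were lower and 1 higher (median -1.22). The NADPH oxidase chain Cybb (-4.17), the sensor Nlrp3 (-3.42) and Il1b (-3.37) were lowest, and the autophagy receptor Sqstm1 (0.84) was the higher one. Gbp7 and Cybb were thus both lower in the dendritic population, and Gbp5 was higher where Nlrp3 was lower.

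None of the 5 enzymes that attach or finish the prenyl anchor of members such as Gbp5 and Gbp2b was called, with limma, in either direction (median -0.09), while 1 had an unadjusted p under 0.05 and 1 was called higher with array weights. Of 11 genes of the Atg8 conjugation machinery, which Gbp proteins need to reach vacuoles in mouse cells, 4 were lower and 0 higher (median -0.29). Atg7 (-1.47), Atg3 (-0.92) and Atg5 (-0.50) were the lowest. Among all genes 9.98% were called higher and 11.6% lower. Atg5 stayed called without dendritic replicate 1 and lost its call without each of the other arrays (limma adjusted p = 0.0768 to 0.106). The count of those lower was 2 without dendritic replicate 2 or 3, and 2 without macrophage replicate 2 or 3. The lists beside the family are drawn in the plot of differences by gene list.

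**Figure D4:**
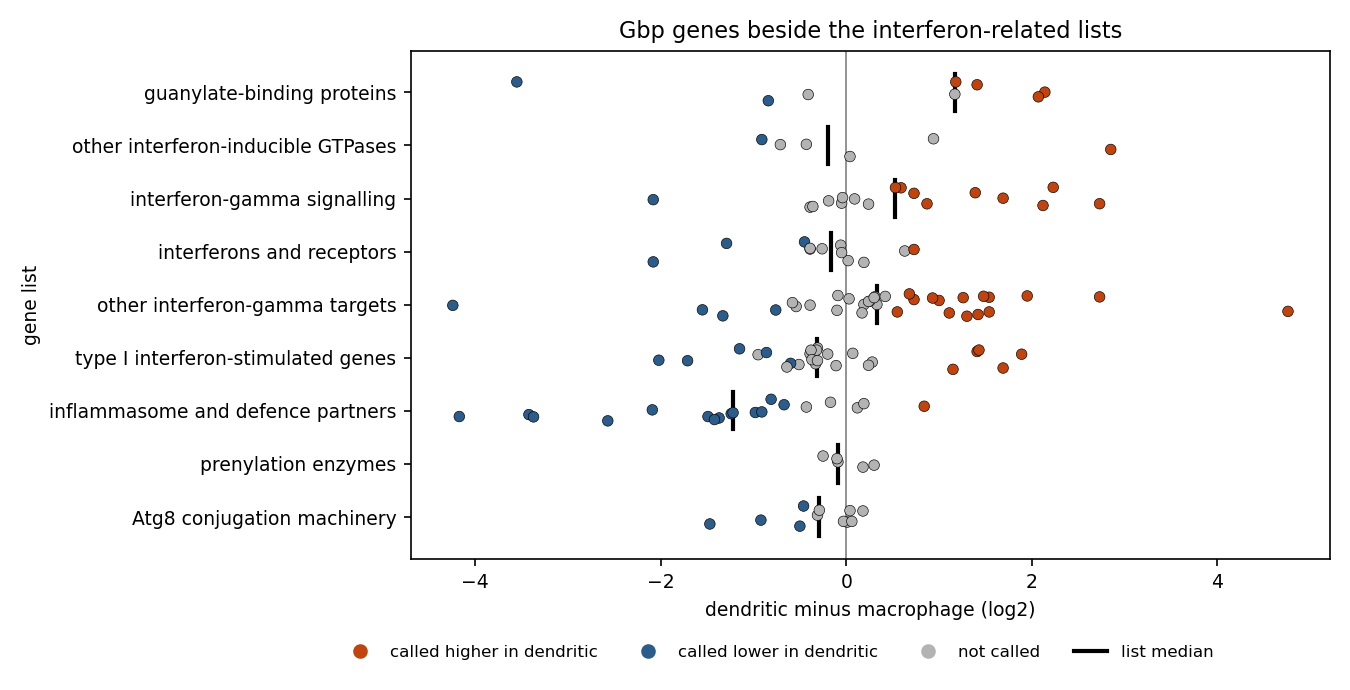
Differences between dendritic and macrophage means (log2) of the Gbp genes and of each interferon-related list, 1 dot per gene, with the list median as a black bar. Gbp genes lie on both sides of 0, from -3.55 to 2.14, and most inflammasome and defence partners lie under 0.

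Most calls of the family held under other settings. Gbp5, Gbp7, Gbp3, Gbp2b and Gbp8 were called in the same direction in all 16 alternatives each, and Gbp4 in 14 of the 15 in which it was tested. The difference of Gbp7 ranged from -3.88 to -3.26, that of Gbp5 from 1.86 to 2.34 and that of Gbp8 from 1.81 to 2.27. Those of Gbp3 (-1.03 to -0.62) and Gbp2b (0.91 to 1.48) came nearer to the threshold, with limma adjusted p up to 0.0472 for Gbp3 and 0.0331 for Gbp2b. Gbp9 was called in 1 of 16 alternatives and Gbp11 in 1 of 14.

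**Figure D5:**
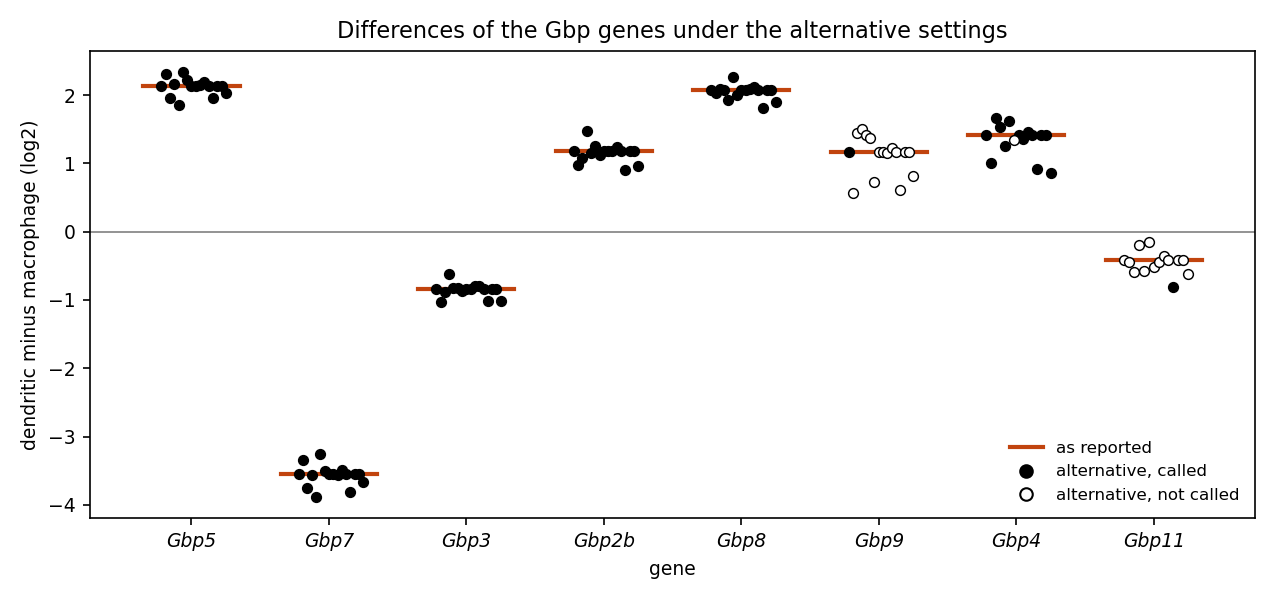
Difference between dendritic and macrophage means (log2) of each Gbp gene as reported (line) and under each alternative setting (dots, filled where called at an adjusted p under 0.05). Gbp7 stays between -3.88 and -3.26 and Gbp9 ranges from 0.57 to 1.51, called once.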

How the data were processed

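The deposited values are log2 RMA values, given for 35556 probe sets on every array and made by the authors with RMA in R 3.0.2 according to the submitters' processing notes. RMA corrects background, normalizes arrays by quantiles and sums up the probes of a probe set. The sources used here state neither the arrays it was run on nor the probe set definition or genome build. The number of arrays limits the precision.

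Names came from the platform's annotation: 21789 probe sets carried 1 symbol, 1621 several, and 12146 are not in it. Symbols were checked through Entrez identifiers in RefSeq (GRCm38.p6), where 21698 were found and 0 changed. The brightest probe set stood for each of 19938 genes.

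Differences were tested with limma 3.58.1 in R 4.3.3 (lmFit, eBayes, population as the only term, all 6 arrays, no filter). Simulated data of 19938 genes, drawn with the spread of the real ones, were used as a check: the test recovered, for dendritic minus macrophage, 5 of 67 genes at a log2 change of 0.5, 61 of 67 at 1 and 66 of 66 at 2, and 10 of the 142 calls were false. Far fewer genes were changed there than the 21.6% called in the real data, and each value was drawn independently. The rates of the real test may therefore differ from these. Promoter motifs were searched with Python 3.11.15 and pandas 2.3.3. The form of the ISRE core was shortened by a base after a first search with a longer form, which also covered the EICE composite element, not reported here. Figures were drawn with matplotlib 3.10.9.

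Replicate numbers in the titles were taken to pair the samples, since arrays of the same number deviated together from the means of their populations, with correlations of 0.385, 0.147 and 0.272 for numbers 1, 2 and 3. The unmatched pair of dendritic 2 and macrophage 3 reached 0.155, more than the matched arrays of number 2, and what the numbers stand for is unstated. A fit blocked by number was therefore run beside the main fit, which does not pair the arrays.

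Named are all Gbp genes, the called members with the 3 largest differences in each direction of each list, a few fixed interferon genes and the 5 genes most like Gbp8. The members, lists and markers were chosen with earlier results of these data known. Alternatives were the block, leaving out each array, filters on level, repeated quantile normalization, 75th percentile centring, a variance trend with robust estimation, array weights, testing all probe sets and averaging the probe sets of a gene.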

Additional observations from a re-analysis of the deposited data

How the results depend on the processing

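The count of Gbp genes called higher was 4 and ranged from 3 to 5, and that of Gbp genes called lower was 2 and ranged from 2 to 3 over the alternatives. Of 125 alternative values of single Gbp genes 122 kept their direction and their side of the threshold. The exceptions were Gbp9 with the replicate block (1.17, limma adjusted p = 0.0175), Gbp4 without macrophage replicate 3 (1.34, 0.0514) and Gbp11 with array weights (-0.81, 0.0439). The replicate block, which pairs arrays by number, changed no other call of a Gbp gene. Gbp4 could not be tested where genes under the median of level were left out, and Gbp11 under either filter on level (30th percentile or median). The median difference of all genes moved by at most 0.054 under any scaling (75th percentile centring).

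Among the lists, the other interferon-inducible GTPases called lower (1) numbered 3 with the replicate block, 3 with array weights, 2 without replicate 1 of both populations (added after seeing the data), 0 without genes under the median of level, where fewer genes are tested, and 1 to 2 when single arrays were left out. The interferon-gamma signalling genes called lower (1) were 2 with trend and robust estimation. The interferons and receptors called higher (1) were 2 with the replicate block, without genes under the 30th percentile and with 75th percentile centring, and 1 to 2 when single arrays were left out. The interferon-gamma targets called lower (4) were 2 when all probe sets were tested. Type I interferon-stimulated genes called lower (5) ranged from 3 to 7 when single arrays were left out. Inflammasome and defence partners called lower (14) were 9 without genes under the median of level, where fewer are tested. Prenylation enzymes called higher (0) were 1 with array weights. Atg8 conjugation genes called lower (4) were 2 with 75th percentile centring and 2 to 4 when single arrays were left out. The difference of Ifng (-0.05) ranged from -0.26 to 0.27 when single arrays were left out (0.27 without dendritic replicate 1), and was 0.01 with 75th percentile centring, 0.14 with array weights and 0.27 without replicate 1 of both populations, never called. Where no cause is given, the cause was not tested. Dim probe sets such as Gbp11, and Gbp7 in the dendritic population, limit what a difference there can show.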
